A study of Mus musculus with 4 samples.

Results

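The 37 neuronal marker genes examined here were taken by symbol from the 54348 genes of a TPM table, and all 37 had a row. They comprise 14 pan-neuronal genes, 11 genes of excitatory neurons and their progenitors, and 12 genes of inhibitory neurons. Levels were measured by RNA-seq in live tdTomato-positive cells sorted from mouse forebrain at postnatal day 4. The fusion group was PdgfraCreER;MN1:BEND2;AI14 (2 libraries) and the control group was PdgfraCreER;AI14 (2 libraries). Both groups therefore carried PdgfraCreER, a tamoxifen-activated recombinase driven by Pdgfra, and AI14, a tdTomato reporter, and both received tamoxifen on postnatal days 0 and 1. The fusion group also carried MN1:BEND2, the oncogenic fusion of astroblastoma. Forebrains of individual mice were dissociated with papain after the pial membranes were taken off, and dead cells were gated out. The comparison asks how far neuronal genes were expressed in the Pdgfra lineage with the fusion and without it. Cells are labelled through Pdgfra, which in brain marks oligodendrocyte precursors and some fibroblasts, so a cell that never expressed it is outside the design of the sort.

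Neurons share a set of genes for their cytoskeleton, RNA-binding proteins and synaptic vesicles, which are called pan-neuronal here. Excitatory cortical neurons arise from dorsal progenitors through Neurog2, Eomes and NeuroD factors and load vesicles with glutamate through Slc17a7 and Slc17a6. Inhibitory neurons of the forebrain arise mainly from ventral progenitors through Dlx factors, make GABA with Gad1 and Gad2 and load it with Slc32a1. Several genes of these sets are also transcribed in immature glia, so the lists name genes and not cells.

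Values are TPM, a measure of transcript abundance scaled by transcript length and by the library's total, so that levels can be set side by side between genes. Depth is unknown. The mitochondrial share of TPM was 48.7% and 26.2% in the fusion libraries, against 10.1% and 7.30% in the control libraries. The number of genes that reached 1 TPM was 9050 and 10017 in the fusion libraries, against 12772 and 13219 in the control libraries. Bend2 was at 3.82 and 8.72 TPM in the fusion libraries and listed at 0 in the control libraries. Mn1, the other partner of the fusion, had 2.75 and 3.04 TPM in the fusion libraries, against 11.6 and 17.8 TPM in the control libraries. The Y-linked gene Eif2s3y was listed at 0 in both fusion libraries, against 121 and 122 TPM in the control libraries, so sex and genotype cannot be told apart. The labels do not state that each library is a different mouse, so p-values cover the spread between these 4 libraries alone, which could be technical.

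The neuronal genes moved in both directions. Of the 12 pan-neuronal genes that could be tested, 9 fell in the fusion libraries and none rose, led by Elavl4, Stmn3 and Snap25. Of the excitatory genes, only Eomes reached the level needed for a test, and it rose. Of the 4 inhibitory genes tested, Npy rose and Gad1, Gad2 and Sst did not pass. Genes were tested with at least 1 TPM in at least 2 libraries, on log2(TPM + 1), with limma and an adjusted p under 0.05 over 12871 genes. This filter left 17 of the 37 genes; 20 were too low. In the same fit 51.3% of all tested genes fell and 4.95% rose, 56.3% in either direction together, and the median log2 change of all tested genes was -1.41. Lower calls were thus the rule across the transcriptome, and the 9 among 12 pan-neuronal genes are read against that share. When libraries were rescaled to a median ratio of 1, 18.6% of all tested genes were lower and 14.3% higher, 33% in either direction together, with a median change of -0.15. On that scale 1 of the 17 neuronal genes was lower, Syt1, and 3 were higher, Eomes, Npy and Gad2. The filter itself fixed the order of the groups for 4 of the 17 genes: Eomes and Gad2 passed it through the fusion libraries alone, and Syt1 and Syp through the control libraries alone. These 4 had to differ to be tested, so their separation and calls are descriptions. Npy, which passed in all 4 libraries, had both fusion libraries above both control libraries, as did 10.2% of all tested genes. Without control replicate 1, and again without control replicate 2, Syt1 was the only one of the 17 genes past the threshold; the lone control library is then assumed to vary like the fusion libraries. Levels differed widely between genes of the same lists: Rbfox3, Slc17a7, Slc17a6 and Slc32a1 did not exceed 0.665 TPM in any library, while in the control libraries Gap43, Stmn3 and Snap25 reached 606, 665 and 135 TPM. These genes were chosen after their values were seen.

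**Figure D1:**
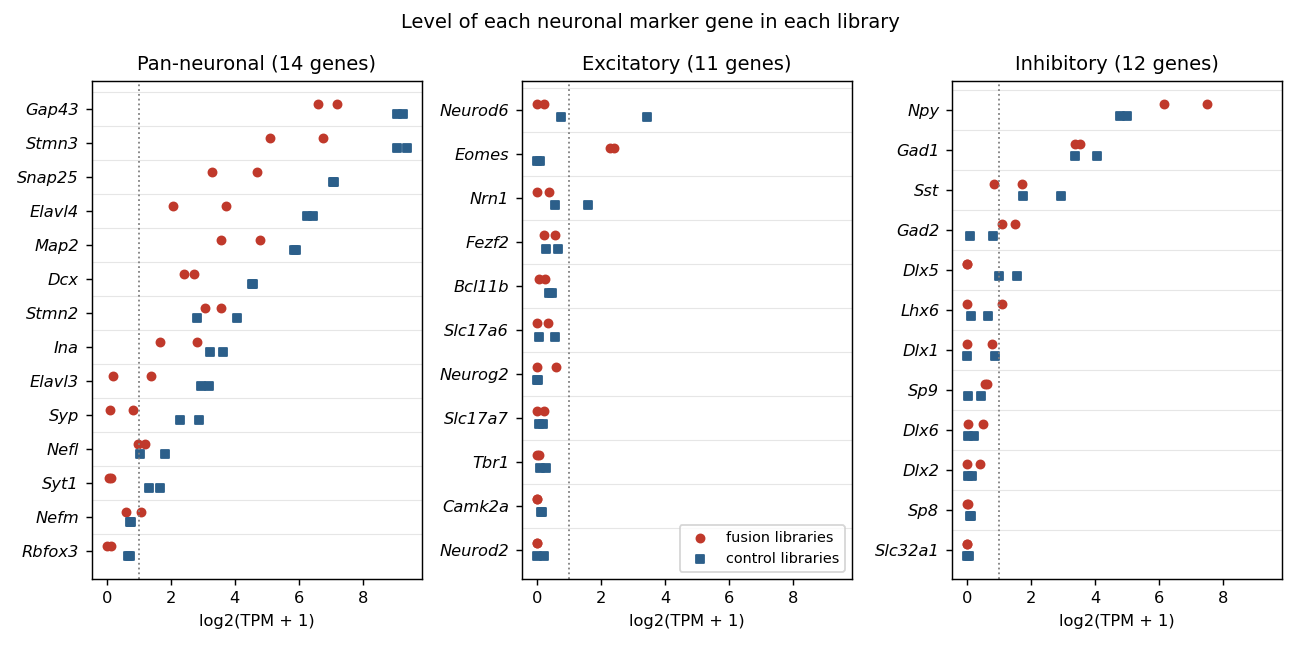
Level of the 37 neuronal marker genes on the log2(TPM + 1) scale (horizontal axes) in the 2 fusion libraries (circles) and the 2 control libraries (squares), with genes ordered by mean level within each subclass; the dotted line is at 1 TPM. Gap43 and Stmn3 were the highest pan-neuronal genes, most excitatory genes lay below 1 TPM, and Npy was the highest inhibitory gene.

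The sequences just upstream of the start site are shown for the 2 called genes that rose and for the 2 with the largest falls among called genes with a single start in the promoter table. The windows run from 250 bases before to 50 bases after the start, 5′ to 3′ on the gene's strand, from RefSeq on GRCm38.p6. Capitals mark the E-box hexamers CAGCTG and CAGATG, which proneural factors such as Neurog2 and Neurod2 can bind, and the CCAAT box, a common promoter element, each searched on both strands; no marked stretches overlapped. The Eomes window lies at chr9:118477939-118478238 (plus strand), the Npy window at chr6:49822460-49822759 (plus strand), the Stmn3 window at chr2:181314451-181314750 (minus strand) and the Elavl3 window at chr9:22051974-22052273 (minus strand).
Eomes: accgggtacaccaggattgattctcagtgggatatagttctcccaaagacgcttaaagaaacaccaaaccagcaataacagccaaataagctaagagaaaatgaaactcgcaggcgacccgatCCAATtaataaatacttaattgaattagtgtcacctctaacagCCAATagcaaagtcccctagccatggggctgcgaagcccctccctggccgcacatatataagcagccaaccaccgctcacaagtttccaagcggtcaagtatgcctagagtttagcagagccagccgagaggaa
Npy: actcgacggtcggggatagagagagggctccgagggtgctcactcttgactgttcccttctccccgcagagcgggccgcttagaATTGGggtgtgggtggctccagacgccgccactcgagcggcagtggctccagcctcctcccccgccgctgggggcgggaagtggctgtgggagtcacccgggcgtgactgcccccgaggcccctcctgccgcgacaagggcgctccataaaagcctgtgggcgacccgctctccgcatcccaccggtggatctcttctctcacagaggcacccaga
Stmn3: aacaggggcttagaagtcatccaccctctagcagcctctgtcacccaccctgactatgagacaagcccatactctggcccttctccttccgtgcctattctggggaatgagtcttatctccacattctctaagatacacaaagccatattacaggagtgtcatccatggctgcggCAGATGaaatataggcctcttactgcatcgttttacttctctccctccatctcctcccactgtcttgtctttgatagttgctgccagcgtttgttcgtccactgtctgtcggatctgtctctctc
Elavl3: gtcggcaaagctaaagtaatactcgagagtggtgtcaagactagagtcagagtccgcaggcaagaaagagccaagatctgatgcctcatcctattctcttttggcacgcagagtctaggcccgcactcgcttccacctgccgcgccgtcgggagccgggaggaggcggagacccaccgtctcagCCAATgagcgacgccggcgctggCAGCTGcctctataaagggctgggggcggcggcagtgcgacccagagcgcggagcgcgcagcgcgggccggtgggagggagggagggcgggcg
The Eomes and Npy windows held no E-box of either kind and 2 and 1 CCAAT boxes. The Stmn3 window held 1 CAGATG, and the Elavl3 window held 1 CAGCTG and 1 CCAAT box. Across all 32851 windows of the promoter table, 16.3% held CAGCTG, 17.2% held CAGATG and 37.4% held a CCAAT box. Counted per gene, with a gene holding a motif if any of its windows did, the shares of 27025 genes were 18.3%, 19.2% and 41.1% in that order of motifs. Counted in the same way, of 28 neuronal marker genes with a window, 5 held CAGCTG (17.9%), 5 held CAGATG (17.9%) and 15 held a CCAAT box (53.6%). The windows of the genes that rose differed in base composition, with 47.3% G and C and 10 CpG dinucleotides for Eomes and 68.0% and 24 for Npy. Those of Stmn3 and Elavl3 had 49.7% and 65.3% G and C, with 6 and 29 CpG dinucleotides.

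Gap43, for a growth-cone protein (ENSMUSG00000047261.9, chromosome 16, 42248442 to 42340651, GRCm38), was the highest pan-neuronal gene in both fusion libraries and in control replicate 1, and Stmn3 was the highest in control replicate 2. It had 95.9 and 145 TPM in the fusion libraries, against 606 and 541 TPM in the control libraries. The groups did not overlap, and Gap43 fell by a log2 change of -2.27 ± 0.37 (SE, n = 2 each, adjusted p = 0.00664, limma). Rescaled, its change was -0.51 (adjusted p = 0.198). Gap43 ranked in the top 2 of the 37 genes in every library.

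The stathmins, which bind tubulin and regulate microtubules, parted. Stmn3 (ENSMUSG00000027581.12, chromosome 2, 181306459 to 181314500) had 33.0 and 108 TPM in the fusion libraries, against 539 and 665 TPM in the control libraries. It fell by -3.30 ± 0.61 (SE, adjusted p = 0.00933, limma), or -1.89 relative to the median of all genes, and by -1.54 rescaled (adjusted p = 0.0503). The fusion libraries differed from each other more than the control libraries did, with fusion replicate 1 the lower. Stmn2, a neuronal stathmin of growing axons, had 10.9 and 7.37 TPM in the fusion libraries, against 15.7 and 6.06 TPM in the control libraries. Its groups overlapped, and its change of -0.12 ± 0.57 (SE, adjusted p = 0.867) turned to 1.45 rescaled (adjusted p = 0.158).

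The neuronal ELAV-like RNA-binding proteins, which stabilise neuronal transcripts, were both lower. Elavl4 (ENSMUSG00000028546.17, chromosome 4, 110203722 to 110351909) had 3.21 and 12.3 TPM in the fusion libraries, against 86.9 and 74.9 TPM in the control libraries. Its fall of -3.45 ± 0.62 (SE, adjusted p = 0.00859, limma) was the largest of the 17 genes, and its rescaled change was -1.81 (adjusted p = 0.0529). Elavl3 had 0.150 and 1.64 TPM in the fusion libraries, against 6.76 and 8.16 TPM in the control libraries. It fell by -2.27 ± 0.53 (SE, adjusted p = 0.0182), and by -1.20 rescaled without passing (adjusted p = 0.173).

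Snap25, Syt1 and Syp encode parts of the synaptic vesicle machinery, and each fell. Snap25 (ENSMUSG00000027273.13, chromosome 2, 136713453 to 136782428), a SNARE protein of vesicle fusion, had 24.7 and 8.79 TPM in the fusion libraries, against 135 and 132 TPM in the control libraries. The control libraries were close together and both far above the fusion libraries, and the fall was -3.09 ± 0.54 (SE, adjusted p = 0.00803, limma; rescaled -1.36, adjusted p = 0.203). Syt1, the calcium sensor of release, had 0.103 and 0.0440 TPM in the fusion libraries, against 1.49 and 2.14 TPM in the control libraries. Syt1 was low in all libraries, and its change of -1.38 ± 0.25 (SE, adjusted p = 0.00833) lay at the median of all genes, 0.02 above it, on a scale that understates the change of low genes. It was the pan-neuronal gene that passed after rescaling, by -0.76 (adjusted p = 0.0499), and it also passed with each library left out, but both fusion libraries lay under the filter, so that Syt1 had to differ to be tested. With quantile-normalized values its change was -0.04 (adjusted p = 0.912), and with a correction for GC content and length -0.04 (adjusted p = 0.939), so the call rests on the scale. Syp, for the vesicle protein synaptophysin, had 0.0832 and 0.788 TPM in the fusion libraries, against 3.89 and 6.45 TPM in the control libraries. It fell by -2.12 ± 0.44 (SE, adjusted p = 0.0128; rescaled -1.19, adjusted p = 0.0965), and it too reached the filter through the control libraries alone.

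Map2 and Dcx, genes of microtubule-binding proteins, both fell. Map2, for a microtubule-associated protein of dendrites, had 10.8 and 26.4 TPM in the fusion libraries, against 57.3 and 59.2 TPM in the control libraries. Map2 fell by -1.72 ± 0.50 (SE, adjusted p = 0.0350, limma), but its change was -0.01 rescaled (adjusted p = 0.986) and 0.09 with quantile-normalized values, so its direction rests on the scale. Map2 overlaps Gm10558 on the other strand, which had 8.0 and 11.2 TPM in the fusion libraries, against 13.3 and 12.7 TPM in the control libraries. Dcx, for doublecortin of migrating neurons, had 4.38 and 5.66 TPM in the fusion libraries, against 22.0 and 23.0 TPM in the control libraries. It fell by -1.97 ± 0.39 (SE, adjusted p = 0.0114; rescaled -0.37, adjusted p = 0.474).

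Intermediate filament genes of neurons did not pass. Ina, for alpha-internexin, had 2.18 and 6.09 TPM in the fusion libraries, against 8.30 and 11.4 TPM in the control libraries (change -1.17 ± 0.56, SE, adjusted p = 0.125, limma; rescaled 0.31). Without fusion replicate 2 it passed (-1.75, adjusted p = 0.0241). Ina overlaps Nt5c2 on the other strand, which had 1.45 and 1.61 TPM in the fusion libraries, against 32.1 and 30.6 TPM in the control libraries, and the labels state no strand-specific kit, so reads of overlapping genes may not be separable. Nefl, the light neurofilament chain, had 0.972 and 1.27 TPM in the fusion libraries, against 2.51 and 1.05 TPM in the control libraries (-0.34 ± 0.38, adjusted p = 0.474; rescaled 0.65). Nefm, the medium chain, had 0.537 and 1.09 TPM in the fusion libraries, against 0.708 and 0.661 TPM in the control libraries; it was too low to test. The annotated spans of Nefl and Nefm also overlap on opposite strands. Rbfox3, for the neuronal nuclear antigen NeuN, a splicing factor of mature neurons, had 0.0901 and 0 TPM in the fusion libraries, against 0.585 and 0.665 TPM in the control libraries. It was also too low for the test, and with no filter on low values it passed (-0.64, adjusted p = 0.0425).

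**Figure D2:**
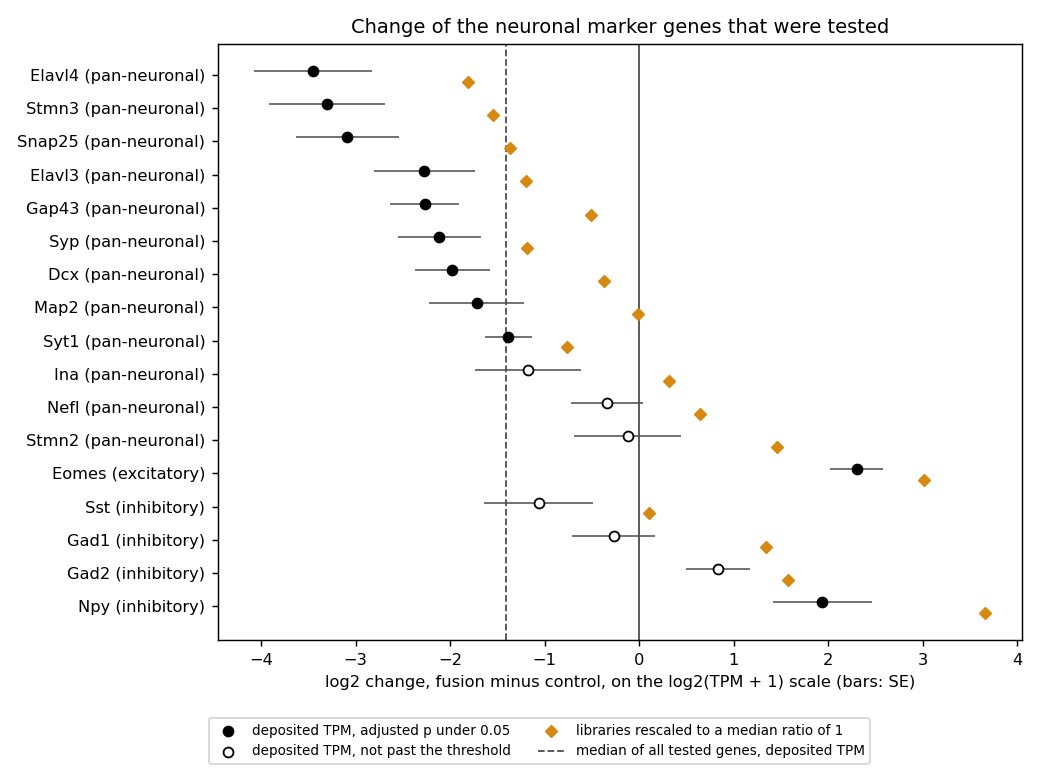
Log2 change (fusion minus control) of the 17 neuronal marker genes tested, from deposited TPM (circles, filled where the adjusted p was under 0.05; bars are the SE, n = 2 each) and after rescaling libraries to a median ratio of 1 (diamonds). The dashed line is the median of all tested genes, -1.41; Eomes and Npy lie to the right of 0 on both scales, and the pan-neuronal circles lie to the left of it, while the diamonds of Stmn2, Nefl and Ina lie to its right.

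As a list, the tested pan-neuronal genes had a median change of -2.05, or -0.64 relative to all tested genes. After rescaling their median change was -0.63, where that of all tested genes was -0.15. On that scale 1 of the 12 was lower, Syt1, and none higher, beside 18.6% of all tested genes lower and 14.3% higher. On deposited TPM no pan-neuronal gene was higher at an unadjusted p under 0.05 by limma. The fusion libraries lay below both control libraries for 10 of the 12 genes, all but Stmn2 and Nefl, beside 71.1% of all tested genes. Among the 10 were Syt1 and Syp, whose order was fixed by the filter. In such bulk libraries fewer cells of a type and less RNA per cell cannot be told apart.

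Excitatory genes were near the floor of the measurement. Of the 11, 8 were under 1 TPM in each library: Neurod2, Tbr1, Neurog2, Slc17a7, Slc17a6, Bcl11b, Fezf2 and Camk2a. Their highest value was 0.590 TPM, of the corticofugal neuron factor Fezf2 in control replicate 1. The vesicular glutamate transporters were at most 0.165 TPM (Slc17a7) and 0.262 TPM (Slc17a6) in a fusion library, and at most 0.148 and 0.476 TPM in a control library. Camk2a, a kinase of mature excitatory synapses, was listed at 0 in both fusion libraries and at 0.0859 and 0.121 TPM in the control libraries. Tbr1, a factor of deep-layer and early-born neurons, had 0.0383 and 0 TPM in the fusion libraries, against 0.217 and 0.0766 TPM in the control libraries. Neurod6, a factor of cortical projection neurons, was uneven: it had 0.167 and 0 TPM in the fusion libraries, against 9.83 and 0.682 TPM in the control libraries. Control replicate 1 alone carried it. Nrn1, for the axonal surface protein neuritin, showed the same imbalance, with 0.0128 and 0.302 TPM in the fusion libraries, against 2.00 and 0.470 TPM in the control libraries. Nrn1 lies within the span of Fars2 on the other strand, which had 2.93 and 13.9 TPM in the fusion libraries, against 31.1 and 39.4 TPM in the control libraries.

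Eomes (ENSMUSG00000032446.14, chromosome 9, 118478212 to 118486132) went the other way. This T-box factor marks intermediate progenitors of cortical excitatory neurons and is also made by natural killer and some T cells. It had 3.86 and 4.29 TPM in the fusion libraries, against 0.0609 and 0 TPM in the control libraries. The fusion libraries were close together and both above both control libraries, a log2 change of 2.30 ± 0.28 (SE, adjusted p = 0.00403, limma), or 3.02 rescaled (adjusted p = 0.0112). Eomes entered the test through the fusion libraries alone, since both control libraries lay under the filter, so that it had to differ to be tested. Its call was lost without control replicate 1 (adjusted p = 0.0790) and without control replicate 2 (adjusted p = 0.101), with changes of 2.34 and 2.26. Neurog2, Neurod1 and Tbr1, other factors of the excitatory sequence, were too low to test. Neurog2, which acts before Eomes, had 0.509 and 0 TPM in the fusion libraries, against 0.0168 and 0 TPM in the control libraries. Neurod1, a factor of the same sequence, had 2.25 and 0 TPM in the fusion libraries, against 0.958 and 0.0328 TPM in the control libraries; fusion replicate 1 carried both genes. Tbr1, which follows Eomes in that sequence, is given above. Of 11 natural killer and T cell markers listed after the value of Eomes was seen, 8 were listed at 0 in every library, among them Cd3e, Nkg7 and Ncr1. Their sum was 0.0144 and 0.460 TPM in the fusion libraries, against 0.421 and 0.0857 TPM in the control libraries.

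Among inhibitory genes, Npy (ENSMUSG00000029819.6, chromosome 6, 49822710 to 49829507), for the neuropeptide Y made by a class of cortical interneurons, was the highest. Npy had 70.3 and 179 TPM in the fusion libraries, against 31.0 and 26.2 TPM in the control libraries. The groups did not overlap, fusion replicate 2 was the higher, and the log2 change was 1.94 ± 0.53 (SE, adjusted p = 0.0280, limma), or 3.66 rescaled (adjusted p = 0.0108). The call was lost with no filter on low values (adjusted p = 0.0862) and without control replicate 1 or control replicate 2 (adjusted p = 0.216 and 0.267); the change was positive in each alternative, from 1.27 to 3.66. By level, Npy ranked second and first of the 37 genes in the fusion libraries and sixth in both control libraries.

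The GABA synthesis genes were detected at low to moderate level. Gad1, for the larger glutamate decarboxylase, had 9.42 and 10.4 TPM in the fusion libraries, against 9.37 and 15.7 TPM in the control libraries. The groups overlapped, and its change of -0.27 ± 0.44 (SE, adjusted p = 0.621, limma) turned to 1.35 rescaled (adjusted p = 0.0585). Gad2, for the smaller one, had 1.14 and 1.81 TPM in the fusion libraries, against 0.0742 and 0.753 TPM in the control libraries. The groups did not overlap, with a change of 0.84 ± 0.34 that did not pass (SE, adjusted p = 0.0865) and passed rescaled (1.57, adjusted p = 0.0206). Like Eomes, Gad2 reached the filter through the fusion libraries. Slc32a1, the vesicular GABA transporter, was listed at 0 in both fusion libraries and at 0.0526 and 0 TPM in the control libraries. The gene for loading GABA into vesicles was thus at or near 0, while Gad1 was detected in all 4 libraries.

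Sst, for somatostatin, a peptide of another interneuron class, had 0.803 and 2.25 TPM in the fusion libraries, against 6.59 and 2.37 TPM in the control libraries. The lowest control library was close to the highest fusion library, and the change of -1.06 ± 0.58 (SE, adjusted p = 0.168, limma) was 0.11 rescaled. The homeobox and zinc-finger factors of the ventral lineage were too low to test. Dlx5 was listed at 0 in both fusion libraries, against 1.97 and 0.991 TPM in the control libraries. With no filter on low values its change was -1.28 (adjusted p = 0.0574). Lhx6, a factor of interneurons from the medial ganglionic eminence, had 0 and 1.14 TPM in the fusion libraries, against 0.0914 and 0.582 TPM in the control libraries.

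Sp9 had 0.474 and 0.523 TPM in the fusion libraries, against 0.0237 and 0.345 TPM in the control libraries, so that the fusion libraries were the higher. Its annotated span overlaps that of Cir1 on the other strand, a gene at 13.7 to 32.4 TPM. Only spans were compared, not exons, so whether reads of Sp9 and Cir1 can be told apart is unknown. Sp8, a relative of Sp9, was at most 0.0127 TPM in the fusion libraries and 0.0966 TPM in the control libraries. Dlx1, Dlx2 and Dlx6 were at most 0.729, 0.326 and 0.397 TPM in a fusion library and 0.847, 0.105 and 0.171 TPM in a control library, with groups that overlapped. Dlx6 is annotated across the antisense transcript Dlx6os1, which had 0.180 and 3.79 TPM in the fusion libraries, against 0.531 and 0.193 TPM in the control libraries.

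The balance between subclasses within a library is free of any single scaling factor per library. Pan-neuronal genes held 67.8% and 61.9% of the summed TPM of the 37 genes in the fusion libraries, against 95.9% and 96.8% in the control libraries. Inhibitory genes held 30.1% and 37.2% in the fusion libraries, against 3.20% and 3.03% in the control libraries. Most of the inhibitory share was Npy, with 25.5% and 34.0% of the sum in the fusion libraries, against 2.00% and 1.65% in the control libraries. Excitatory genes held 2.06% and 0.920% in the fusion libraries, against 0.895% and 0.131% in the control libraries. The sum itself was 276 and 524 TPM in the fusion libraries, against 1550 and 1582 TPM in the control libraries. A few abundant genes set these shares, so they describe Gap43, Stmn3 and Npy more than the lists as a whole.

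**Figure D3:**
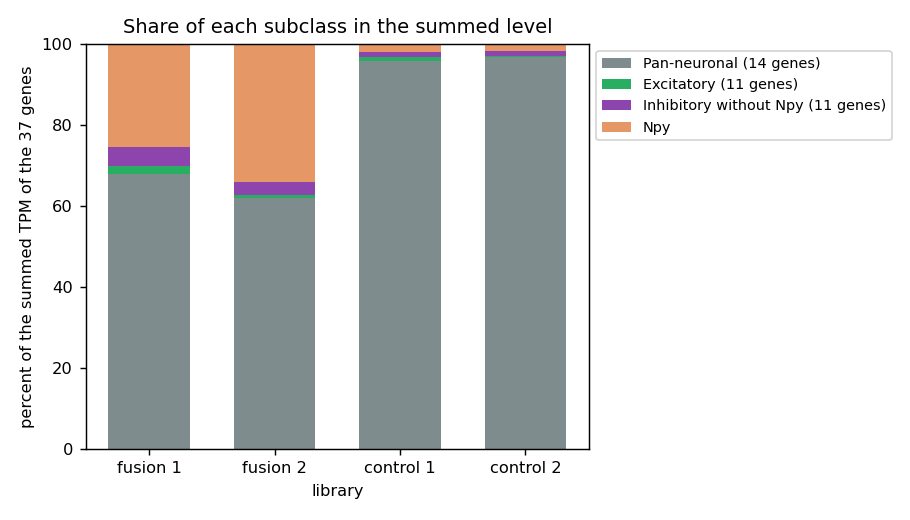
Stacked bars of the percent of the summed TPM of the 37 genes in each library (horizontal axis, fusion then control) held by pan-neuronal genes, excitatory genes, inhibitory genes other than Npy, and Npy. Npy held 25.5% and 34.0% in the fusion libraries, against 2.00% and 1.65% in the control libraries.

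Other genes of the same programmes were read from 3 further lists. Of 38 other pan-neuronal genes, 33 were tested, of which 26 fell, none rose and 7 did not pass, beside 51.3% of all tested genes that fell; none was higher at an unadjusted p under 0.05 (limma). Their median change was -2.54, or -1.14 relative to all tested genes, and 10 were lower and none higher after rescaling. The 3 with the largest falls were Nsg1, Dpysl3 and Uchl1. Nsg1, for an endosomal protein of neurons, had 6.84 and 3.03 TPM in the fusion libraries, against 116 and 195 TPM in the control libraries (-4.75 ± 0.51, SE, adjusted p = 0.00380). Dpysl3, for a collapsin response mediator protein, had 5.80 and 12.6 TPM in the fusion libraries, against 162 and 260 TPM in the control libraries (-4.42 ± 0.50, adjusted p = 0.00384). Uchl1, for a neuronal deubiquitinase, had 7.70 and 12.5 TPM in the fusion libraries, against 203 and 232 TPM in the control libraries (-4.33 ± 0.39, adjusted p = 0.00367). These 3 stayed past the threshold after rescaling, with changes of -3.09, -2.74 and -2.63.

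Of 24 other excitatory lineage genes, 14 were tested. Of these, 8 fell, none rose and 6 did not pass, beside 51.3% of all tested genes that fell. Their median change was -1.35, or 0.05 relative to all tested genes. Rescaled, 3 were lower and 1 higher, beside 18.6% and 14.3% of all tested genes. None was higher at an unadjusted p under 0.05 (limma). Of the 8 that fell, Cux2, Emx2, Rorb and Bcl11a reached the filter through the control libraries alone. They had to differ to be tested, and Cux2 and Rorb were also among the 3 lower after rescaling. Nfix, a nuclear factor of neural progenitors and glia as well as neurons, fell to 0.329 and 1.58 TPM in the fusion libraries, against 36.9 and 49.2 TPM in the control libraries (-4.56 ± 0.51, SE, adjusted p = 0.00384; rescaled -3.28). Sox5, also made in oligodendrocyte precursors, had 1.70 and 5.35 TPM in the fusion libraries, against 18.4 and 34.8 TPM in the control libraries (-2.67 ± 0.61, adjusted p = 0.0166; rescaled -1.14, not past the threshold). Cux2, a factor of upper-layer neurons, had 0.322 and 0.583 TPM in the fusion libraries, against 7.07 and 6.45 TPM in the control libraries (-2.42 ± 0.37, adjusted p = 0.00585; rescaled -1.35).

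Of 28 other inhibitory lineage genes, 20 were tested, of which 6 fell, 2 rose and 12 did not pass, beside 51.3% of all tested genes that fell and 4.95% that rose (median -1.15, or 0.26 relative to all tested genes; rescaled, 3 lower and 3 higher). Rprm, for the cell-cycle inhibitor reprimo, is not specific to inhibitory neurons. It had 0.949 and 0.386 TPM in the fusion libraries, against 54.5 and 114 TPM in the control libraries (-5.61 ± 0.53, SE, adjusted p = 0.00367, limma). Sox6, a factor of interneurons that is also made in oligodendrocyte precursors, had 5.28 and 8.10 TPM in the fusion libraries, against 306 and 385 TPM in the control libraries (-5.51 ± 0.38, adjusted p = 0.00367). Calb2, for the calcium-binding protein calretinin, had 0 and 0.0232 TPM in the fusion libraries, against 5.61 and 5.36 TPM in the control libraries (-2.68 ± 0.30, adjusted p = 0.00384). All 3 also passed after rescaling. Rprm and Calb2, like Cux2 above, reached the filter through the control libraries alone. Gsx1, also among the 6 that fell, did so too. It had 0.610 and 0.0182 TPM in the fusion libraries, against 4.57 and 6.85 TPM in the control libraries. These genes had to differ to be tested. The 2 that rose were Maf and Ebf1, transcription factors also made outside neurons, Maf in macrophages and Ebf1 in mural cells and fibroblasts. Maf had 4.59 and 1.86 TPM in the fusion libraries, against 0.488 and 0.604 TPM in the control libraries (1.37 ± 0.42, adjusted p = 0.0402). Ebf1 had 2.08 and 1.47 TPM in the fusion libraries, against 0.433 and 0.193 TPM in the control libraries (1.08 ± 0.27, adjusted p = 0.0224). Maf and Ebf1 reached the filter through the fusion libraries alone and so had to differ to be tested.

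**Figure D4:**
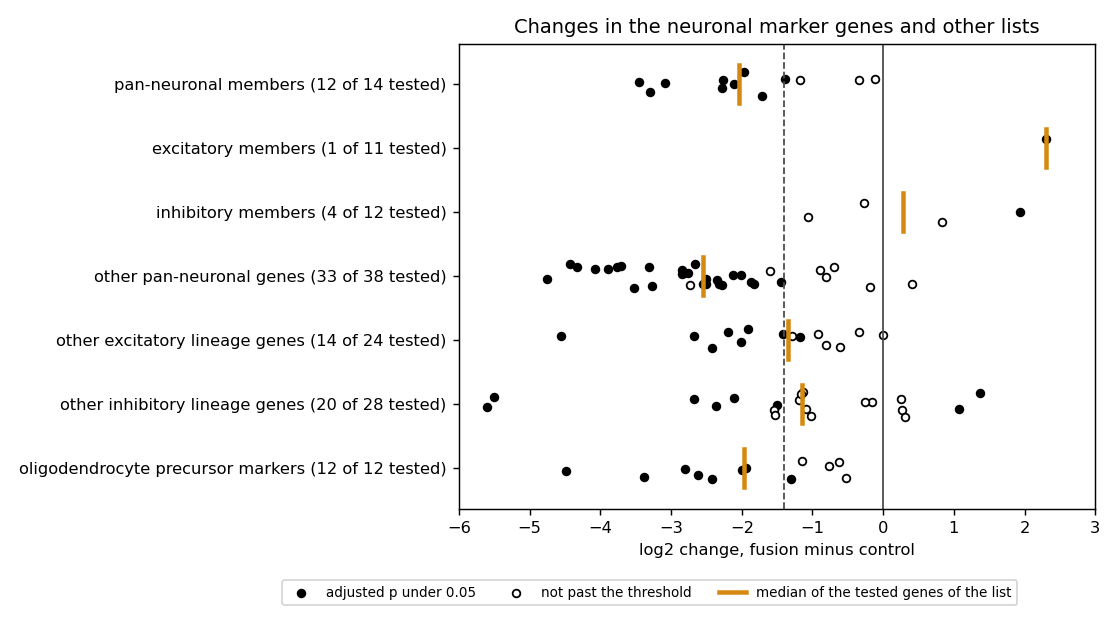
Log2 change (fusion minus control) of each tested gene in the 3 neuronal marker subclasses, the 3 further neuronal lists and the oligodendrocyte precursor markers; points are spread vertically for sight only, filled points had an adjusted p under 0.05, orange bars are list medians and the dashed line is the median of all tested genes. Pan-neuronal lists centre at -2.05 and -2.54, and the points right of 0 with a filled mark are Eomes, Npy, Maf and Ebf1.

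Markers of other cell types moved with the groups as well, and their counts on deposited TPM stand beside 51.3% of all tested genes that fell and 4.95% that rose. Of 12 oligodendrocyte precursor markers, 8 were lower and none higher (rescaled, 2 lower and 1 higher), with a summed level of 470 and 605 TPM in the fusion libraries, against 1368 and 1777 TPM in the control libraries. Pdgfra, which drives the recombinase, had 123 and 192 TPM in the fusion libraries, against 337 and 429 TPM in the control libraries. All 9 tested of 10 oligodendrocyte markers were lower (rescaled, 6 lower and none higher). Mog and Myrf among them reached the filter through the control libraries alone. The sum of the list was 217 and 191 TPM in the fusion libraries, against 2323 and 3288 TPM in the control libraries. Of 11 tested of 12 astrocyte and radial glia markers, 4 were lower and none higher, a balance that turned to 1 lower and 3 higher rescaled; the sum, mostly Fabp7, was 9097 and 17331 TPM in the fusion libraries, against 9766 and 9651 TPM in the control libraries. Of 10 fibroblast markers, 4 were higher and 1 lower (rescaled, 7 higher and none lower). Foxc1, among the higher, reached the filter through the fusion libraries alone, and Pdgfrl, the lower one, through the control libraries alone. The sum of the list was 536 and 1069 TPM in the fusion libraries, against 62.7 and 172 TPM in the control libraries. Mgp was most of it in the fusion libraries, with 364 and 717 TPM, against 0 and 1.34 TPM in the control libraries. Of 10 tested of 12 microglia and macrophage markers, 3 were higher and 2 lower (rescaled, 4 higher and none lower). Their list summed to 167 and 246 TPM in the fusion libraries, against 115 and 58.6 TPM in the control libraries. P2ry12, among the lower, was listed at 0 in both fusion libraries. It reached the filter through the control libraries alone and so had to differ to be tested. Endothelial and mural markers had 3 tested of 10, 1 of them, Cdh5, higher on both scales. Cdh5 reached the filter through the fusion libraries alone and so had to differ to be tested. The sum, mostly Vtn, was 17.9 and 80.5 TPM in the fusion libraries, against 58.4 and 217 TPM in the control libraries. Vtn itself had 14.4 and 54.8 TPM in the fusion libraries, against 54.4 and 214 TPM in the control libraries. The part of these cell types, of the mitochondrial share and of sex in the changes of the neuronal genes was not tested.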

How the data were processed

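RNA-seq was measured in 2 fusion and 2 control libraries of sorted cells, made with a full-length cDNA amplification kit and sequenced as paired ends, per the labels' protocols. The authors deposited 1 table of TPM. Reads were handled with Trimmomatic 0.39 and Salmon 1.8.0 on GRCm38, per the submitters' processing notes; the sources used here give neither the annotation release nor how transcripts were summed. TPM keeps no depth, so no counting interval is given and an exact 0 is described as listed at 0. Each column was assigned to its sample by genotype and number.

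Genes reaching 1 TPM in 2 or more libraries were fitted as log2(TPM + 1) with limma 3.58.1 in R 4.3.3 (mean-variance trend, 2-sided, Benjamini-Hochberg over 12871 genes, threshold 0.05). Changes are fusion minus control and understate the change of low genes. The fit was tested on simulated data. Coordinates came from GENCODE M21 (GRCm38), and promoter windows from RefSeq (GRCm38.p6), which held 28 of the 37 genes. Text names all 37 genes, and from the further neuronal lists up to 3 called genes in each direction with the largest change; natural killer and T cell genes, Neurod1, Y-linked Eif2s3y and the overlapping genes Gm10558, Nt5c2, Fars2, Cir1 and Dlx6os1 were chosen after values were seen. Called genes of the further neuronal lists that reached the filter through the libraries of a single group are also named. Members and lists were chosen with earlier results of these data known. Alternatives were other pseudocounts (0.1 and 5), filters (none, or a mean of at least 5 TPM) and scalings, no trend, a replicate block and each library left out; a correction for GC content and length was added after seeing the data.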

Additional observations from a re-analysis of the deposited data

How the results depend on the processing

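Groups of 2 leave 2 residual degrees of freedom beside a prior of 3.25, and the unknown depth gives no floor for genes listed at 0. After median ratio scaling 2396 genes were lower and 1846 higher; with quantile-normalized values 1955 and 1948; with the correction for GC content and length 1952 and 1878; and with the replicate block and rescaling together 1856 and 1546. Higher genes numbered 353 with no filter, 405 with a mean of at least 5 TPM and 968 without mitochondrial and ribosomal genes. Leaving out each library in turn gave 1025 to 7987 lower and 14 to 1084 higher genes.

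Of the neuronal marker genes, all lower calls being pan-neuronal, 1 was lower after rescaling, 2 with quantile values, 2 with the GC and length correction, 1 with the block and rescaling, and 1 to 10 with each library left out; the value was lowest with either control library left out. Higher calls were 1 with no filter, 1 with a mean of at least 5 TPM, 4 with the GC and length correction and 0 to 2 with each library left out. Excitatory higher calls were 0 to 1 with each library left out. Inhibitory higher calls were 0 with no filter, 2 after rescaling, 2 with quantile values, 2 without mitochondrial and ribosomal genes, 2 with the block and rescaling, 3 with the GC and length correction, and 0 to 1 with each library left out. For the further neuronal lists, main counts of 40 lower and 2 higher became 16 and 4 after rescaling, 14 and 5 with quantile values, 16 and 9 when corrected for GC content and length, and 12 lower with the block and rescaling. Higher calls there were 1 with a pseudocount of 0.1, 0 with no filter, 0 with a mean of at least 5 TPM, 1 without mitochondrial and ribosomal genes and 0 with no trend. With each library left out they were 2 to 44 lower and 0 to 2 higher.

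Stmn2, Nefl, Ina, Gad1 and Sst, which did not pass, and Map2 changed sign in some settings. Stmn2 was at 1.45 rescaled, 1.52 with quantile values, 0.47 without mitochondrial and ribosomal genes, 1.45 with the block and rescaling and 1.24 when corrected for GC content and length. Nefl was at 0.65, 0.88, 0.025, 0.65 and 1.44 in the same settings, and Gad1 at 1.35, 1.37, 0.32, 1.35 and 1.39, the last past the threshold (adjusted p = 0.0404, limma). Ina was at 0.31 rescaled, 0.35 with quantile values, 0.31 with the block and rescaling and 0.61 when corrected for GC content and length. Sst was at 0.11 rescaled, 0.29 with quantile values and 0.11 with the block and rescaling, and Map2 at 0.085 with quantile values. With each library left out Stmn2 ranged from -0.74 to 0.50, Nefl from -0.73 to 0.048 and Gad1 from -0.62 to 0.074. The cause of these changes of call and sign was not tested.

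Replicate numbers are shared between the groups, but deviations of same-numbered libraries had a correlation of -0.04 over tested genes, so the numbers were not taken to pair the libraries. With the replicate block 9 neuronal marker genes were lower and 2 higher, as without it, and 6978 and 642 of all genes. Among the alternative values of single neuronal genes, 159 kept direction and side of the threshold, 56 kept direction but no longer passed, 6 kept direction and newly passed, and 27 changed sign.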

Other observations

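Ratios between 2 genes within a library are free of the library's total. Npy over Snap25 was 2.84 and 20.3 in the fusion libraries, against 0.229 and 0.198 in the control libraries, and Npy over Gap43 was 0.733 and 1.23 in the fusion libraries, against 0.0512 and 0.0484 in the control libraries. Stmn2 over Stmn3 was 0.330 and 0.0681 in the fusion libraries, against 0.0291 and 0.00911 in the control libraries. Gad1 over Snap25 was 0.381 and 1.19 in the fusion libraries, against 0.0691 and 0.119 in the control libraries. In each of these pairs both fusion libraries lay above both control libraries. The ratio of Elavl4 to Elavl3 was 21.4 and 7.47 in the fusion libraries, against 12.9 and 9.17 in the control libraries, and the groups overlapped. The pairs were chosen after the values were seen and were not tested.

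Within the stathmin family, Stmn1, which dividing progenitors also make, had 236 and 232 TPM in the fusion libraries, against 1621 and 1684 TPM in the control libraries, and Stmn4 had 0.986 and 0.959 TPM in the fusion libraries, against 9.40 and 11.7 TPM in the control libraries. Both fell (log2 changes -2.81 ± 0.32 and -2.54 ± 0.41, SE, adjusted p = 0.00384 and 0.00670, limma), and neither passed after rescaling; Stmn4 reached the filter through the control libraries alone. Elavl2 had 2.27 and 1.20 TPM in the fusion libraries, against 3.13 and 5.00 TPM in the control libraries, a change of -0.89 ± 0.44 that did not pass (adjusted p = 0.139) and was 0.39 rescaled. Tubb3, a tubulin often used to mark neurons, fell to 0.879 and 1.82 TPM in the fusion libraries, against 21.6 and 22.0 TPM in the control libraries (-3.31 ± 0.45, adjusted p = 0.00466; rescaled -1.93, adjusted p = 0.0279). These genes were chosen after their values were seen.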
